A study of Mus musculus with 6 samples.

Results

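Periostin (Postn), tenascin C (Tnc), the thrombospondins Thbs1 and Thbs2, Sparc, fibronectin (Fn1) and the CCN proteins Ctgf (now Ccn2) and Cyr61 (now Ccn1) are secreted proteins of the extracellular matrix. These 8 genes were chosen by name, with every probe set that the platform annotation gives to 1 of them alone, which made 18 probe sets, out of 18193 genes and 45037 probe sets measured. A further probe set, shared by Thbs1 and Pald1, was left out.

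RNA came from mouse back skin at E15.5 (the day of gestation), on a C57BL6/129 mixed background. Embryos with 1 mutant copy of Fzd6 (Fzd6 +/-, 3 arrays, called control) were compared with embryos without an intact copy (Fzd6 -/-, 3 arrays, called knockout). Fzd6 encodes a Frizzled receptor of planar cell polarity. No array came from an embryo with 2 intact copies, which makes the control a reduced dose rather than wild type. The labels call the arrays of a group biological replicates and number them 1 to 3. They do not say whether each came from 1 embryo or what the numbers share, so p-values measure the spread between these arrays.

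Matricellular proteins are deposited in the matrix but act mainly by binding cell surface receptors, growth factors and other matrix proteins rather than by bearing load. Fibronectin is assembled by integrins into fibrils onto which collagens and several matricellular proteins are laid down. In embryonic skin most of these proteins are made by dermal fibroblasts and by cells of vessels, while Ctgf and Cyr61 are widely used as readouts of the transcriptional co-activators YAP and TAZ and respond to TGF-beta and to mechanical load.

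Values are expression levels on the log2 scale made by the RMA method (background correction, quantile normalisation between arrays, summary over the probes of a set), where 1 unit is a doubling. Probe sets differ in how they bind, so levels were compared between arrays within a probe set and not between genes. Array medians lay between 5.99 and 6.03 and pairwise correlations of arrays between 0.986 and 0.996. Averaged over 3 Y-linked genes, control 2 stood at 3.12, knockout 3 at 3.15 and the other 4 arrays at 7.88 to 8.39. Of the 3 probe sets of Fzd6, 2 were lower on every knockout array than on every control, by 0.44 and 0.67 on the log2 scale (limma adjusted p = 0.909 and 0.864), and the remaining one differed by −0.0097. The 15 fibroblast markers had mean levels of 9.84 to 14.14 and the 10 measured epidermal markers 9.74 to 14.16, above the median of 6.02 over all probe sets. In whole skin, fewer cells of a type and less RNA per cell cannot be told apart.

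Whether the matrix genes differed between knockout and control skin was tested first. None of the 18 probe sets passed the threshold, an adjusted p of 0.05 (limma, adjusted by Benjamini-Hochberg across the 45037 tested, adjusted p = 0.909 to 0.999), where 0% of all probe sets passed. At an unadjusted limma p under 0.05, 2 of the 18 were lower in the knockout, against 2.63% of all probe sets, and 0 were higher, against 2.58%. These 2 are the dimmer probe set of Thbs1 and the dimmer one of Fn1. They are also the 2 in which the groups did not overlap with the knockout lower, which occurred in 5.0% of all probe sets. In 0 of the 18 did the groups separate with the knockout higher, against 6.55% of all. Taking the brightest probe set of each gene, 7 of the 8 genes had a lower mean in the knockout, as did 47.6% of all genes, with a median difference of −0.15 beside 0.007 over all genes. Of the cell type markers, 12 of 15 for fibroblasts (median −0.13) and 11 of 13 for endothelium and pericytes (median −0.17) had lower means too, and 8 of 10 epidermal markers had higher means (median 0.18), with Krt1 and Krt10 at 0.32 and 0.23 without overlap. The mast cell proteases Cma1, Tpsb2 and Cpa3 differed by 0.94, 0.97 and 0.56 without overlap (0.30 in the other probe set of Tpsb2). Of the 9 macrophage and mast cell markers 4 had lower and 5 higher means (median 0.17). Groups without overlap and an unadjusted limma p under 0.05 were found in 3 of these 9 and 2 of the 10 epidermal markers. They were found in 0 of the fibroblast and 0 of the endothelial and pericyte markers. Of all genes, 11.3% did not overlap and 5.07% had such a p. No marker passed limma's adjusted threshold (adjusted p = 0.909 at the lowest), and the part of these cells in the 8 genes' values was not tested. By the brightest probe set, none of the 8 genes had an unadjusted limma p under 0.05, against 5.07% of all genes. By the same probe sets, none of the 8 had groups that did not overlap, against 11.3% of all genes.

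**Figure D1:**
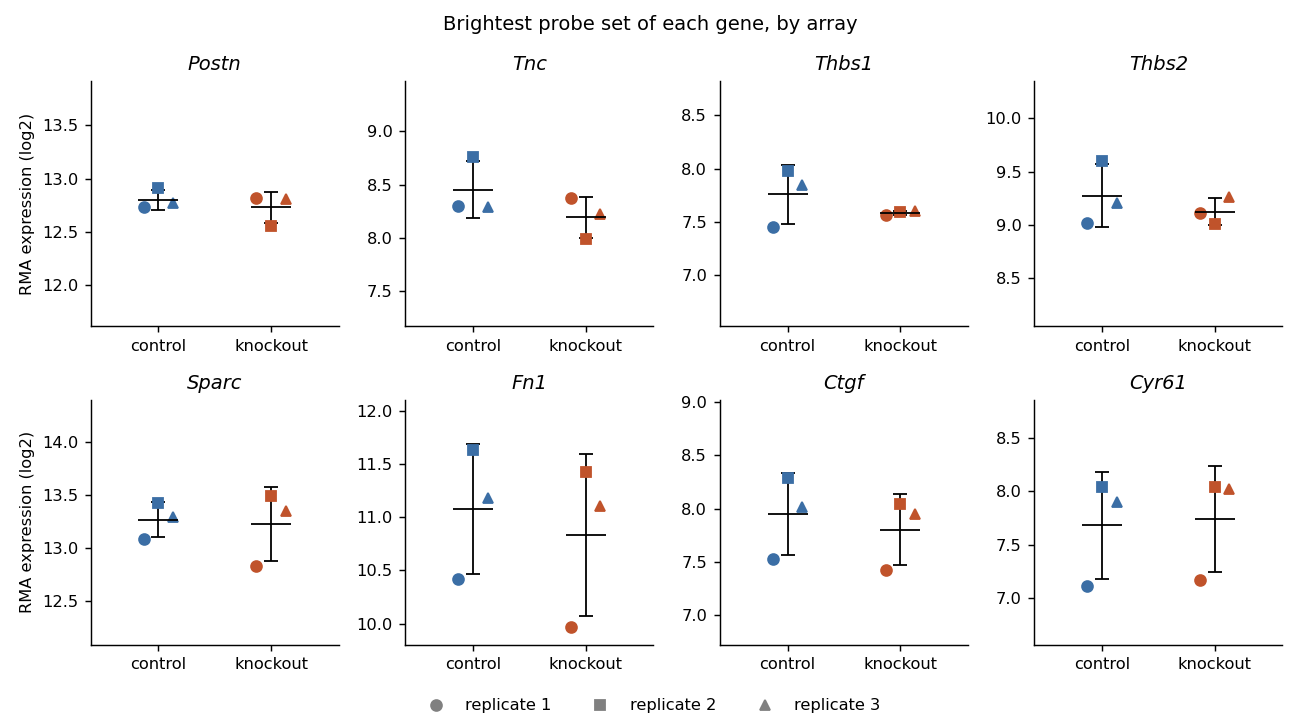
Level (log2) of the brightest probe set of each of the 8 genes on the 3 control and 3 knockout arrays. Circles, squares and triangles are replicates 1, 2 and 3, bars are mean ± SD, and every panel spans the same number of log2 units; the circles of both genotypes lie lowest for Fn1, Ctgf, Cyr61 and Sparc, and the groups overlap in every panel.

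Fn1, the fibril-forming glycoprotein on which much of the dermal matrix is built, varied most. Its brighter probe set read 10.42, 11.63 and 11.18 in controls 1 to 3 and 9.97, 11.42 and 11.10 in knockouts 1 to 3. The highest and lowest arrays thus differed 3.17-fold, and both arrays numbered 1 lay below the other 4. The SD over the 6 arrays, 0.633, was larger than that of 99.1% of the probe sets above the median level. The means were 11.08 ± 0.61 in control and 10.83 ± 0.76 in knockout (SD, n = 3), a difference of −0.25 with a 95% confidence interval of −1.23 to 0.73 (limma adjusted p = 0.969). The interval is wide enough to hold a knockout level between 0.426 and 1.66 times that of the control. Without knockout 1 the difference was 0.18, without control 2 it was 0.028, and without both arrays numbered 1 it was −0.14.

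Within replicate numbers the Fn1 differences were all negative, at −0.46, −0.21 and −0.08 for numbers 1 to 3. With the number as a block the interval narrowed to −0.47 to −0.03, and the adjusted p was 0.379 in limma. The block was adopted from correlations within these same arrays, so the narrower interval is not separate evidence. The dimmer probe set of Fn1 read 7.26, 7.52 and 7.34 in controls and 6.82, 7.17 and 7.15 in knockouts. Here all 3 knockout arrays lay below all 3 controls, with a difference of −0.33 (−0.62 to −0.04, limma p = 0.0297, adjusted p = 0.909, exact permutation p = 0.1, the smallest that 3 against 3 can give). Both probe sets were lower in the knockout within every number, but the brighter one spread far more between arrays (1.66 against 0.70 from lowest to highest).

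Ctgf, a CCN protein that binds integrins and growth factors, had 1 probe set. It read 7.53, 8.29 and 8.02 in controls and 7.42, 8.04 and 7.95 in knockouts. The order of the numbers was the same in both genotypes, with number 1 lowest and number 2 highest. The difference was −0.14 (−0.67 to 0.39, limma adjusted p = 0.967), and within numbers it was −0.11, −0.25 and −0.07. It was 0.047 without knockout 1, 0.029 without control 2 and −0.16 without both arrays numbered 1.

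Cyr61, its close relative and an immediate early gene, had 4 probe sets. The brightest read 7.11, 8.04 and 7.90 in controls and 7.17, 8.04 and 8.02 in knockouts, so the genotypes were nearly level within each number while number 1 lay 1.81-fold below the mean of the other arrays. The difference was 0.06 (−0.66 to 0.78, limma adjusted p = 0.991), and −0.22 without control 1. The other 3 probe sets differed by −0.15, 0.14 and 0.019, without a common sign, and in all 4 both arrays numbered 1 lay below the other 4. The brightest and the dimmest carry the suffix x_at, which the array's maker gives to sets whose probes may bind other transcripts.

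Sparc, a collagen-binding glycoprotein of fibroblasts and vessels, had 3 probe sets. The brightest read 13.09, 13.42 and 13.29 in controls and 12.83, 13.49 and 13.35 in knockouts, with knockout 1 lowest and control 1 next. The difference was −0.041 (−0.46 to 0.38, limma adjusted p = 0.99), 0.16 without knockout 1 and 0.07 without both arrays numbered 1. The middle probe set behaved alike, at 12.06 and 11.87 in the arrays numbered 1 and 12.71 to 12.76 in the other 4, and differed by −0.051 between the genotypes (−0.69 to 0.59). The dimmest, at 6.63 to 6.85, showed little of this, with the arrays numbered 1 on average at −0.07 relative to the others.

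The 250 bases before the annotated start of Cyr61 and Sparc are shown because both genes followed the replicate number, and those of Postn because it did not. They come from RefSeq (GRCm38.p6), lie at chr3:145649986-145650235 (minus strand), chr11:55420081-55420330 (minus strand) and chr3:54360857-54361106 (plus strand, before the downstream one of the 2 starts given for Postn), and are written 5′ to 3′. Of the 8 genes, 5 had an entry there (Postn, Tnc, Thbs2, Sparc and Cyr61). Capitals mark matches on either strand to CATTCC, the core bound by the TEAD partners of YAP, or to TATAAA, the core of the TATA box.
Cyr61: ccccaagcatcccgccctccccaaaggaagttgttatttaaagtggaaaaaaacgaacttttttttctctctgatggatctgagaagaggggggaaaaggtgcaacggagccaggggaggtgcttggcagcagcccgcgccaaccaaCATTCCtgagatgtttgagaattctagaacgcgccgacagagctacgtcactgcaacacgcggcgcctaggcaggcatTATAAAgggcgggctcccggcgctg
Sparc: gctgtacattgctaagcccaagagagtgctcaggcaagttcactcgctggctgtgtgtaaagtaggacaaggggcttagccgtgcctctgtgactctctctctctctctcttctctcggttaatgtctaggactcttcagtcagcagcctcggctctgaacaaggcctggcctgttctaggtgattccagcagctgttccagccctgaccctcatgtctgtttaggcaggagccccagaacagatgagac
Postn: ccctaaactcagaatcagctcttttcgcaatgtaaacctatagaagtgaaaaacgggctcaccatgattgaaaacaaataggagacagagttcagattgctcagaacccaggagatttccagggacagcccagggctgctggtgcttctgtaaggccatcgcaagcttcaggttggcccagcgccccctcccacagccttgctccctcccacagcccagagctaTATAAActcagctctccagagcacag
The window of Cyr61 holds CATTCC starting 103 bases before the start, as 12.6% of all 32851 such windows do on either strand, and TATAAA starting at 25 bases. The printed window of Postn holds TATAAA starting at 26 bases, as 12.4% of all windows hold it somewhere. The window before its upstream start, not printed, holds neither core, nor does that of Sparc. Matches to CCAAT (in 33.8% of all windows), to TGANTCA, the AP-1 site (6.75%), and to the CArG box of serum response factor (1.47%) were searched on both strands as well. The 3 printed windows hold none. Tested by letters alone, a match says nothing of binding in these embryos.

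Postn, which is abundant in fibroblasts and in tissue around muscle and cartilage, varied least among the brightest probe sets. Its single probe set read 12.73, 12.91 and 12.77 in controls and 12.82, 12.56 and 12.81 in knockouts. Knockout 2 was lowest and control 2 highest, and the other 4 lay within 0.09 of each other. The difference was −0.074 (−0.31 to 0.17, limma adjusted p = 0.958), an interval that holds 0.805 to 1.12 times the control level. Without knockout 2 it was 0.012.

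Tnc, a hexameric glycoprotein of mesenchyme next to forming epithelial structures, tendon and muscle, had 2 probe sets. The brighter read 8.30, 8.76 and 8.29 in controls and 8.37, 7.99 and 8.22 in knockouts. Control 2 stood above and knockout 2 below the other 4 arrays, which overlapped. The difference was −0.25 (−0.62 to 0.11, limma adjusted p = 0.914), and it came mostly from number 2, at −0.77, beside 0.08 and −0.07 in numbers 1 and 3. Without control 2 it was −0.099. The dimmer probe set read 5.01, 4.85 and 4.88 in controls and 4.92, 4.34 and 4.73 in knockouts, also a difference of −0.25, with the knockout lower within each number (−0.09, −0.51 and −0.15). Its level lay below the median of all probe sets.

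Thbs1, an activator of latent TGF-beta and an inhibitor of vessel growth, had 2 probe sets of its own. The brighter read 7.45, 7.98 and 7.85 in controls and 7.56, 7.59 and 7.60 in knockouts. The 3 knockout arrays lay within 0.04 of each other and inside the range of the controls, of which control 1 was lowest. The difference was −0.18 (−0.50 to 0.14, limma adjusted p = 0.919). The dimmer read 6.01, 6.43 and 6.37 in controls and 5.93, 5.89 and 5.55 in knockouts, with no overlap but with control 1 and knockout 1 only 0.08 apart. Its difference was −0.48 (−0.83 to −0.14), or 0.717 times the control level, with limma p = 0.0128, adjusted p = 0.909 and exact permutation p = 0.1. The mean level of this set, 6.03, was close to the median of all probe sets, 6.02, and its 3 knockout values lay below that median. The probe set shared with Pald1 read 8.82, 9.44 and 9.24 in controls and 8.91, 9.08 and 9.18 in knockouts, a difference of −0.11. Its signal cannot be assigned to either gene. The 2 sets of Thbs1 alone gave the same sign, at −0.18 and −0.48.

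Thbs2, a thrombospondin of fibroblasts that regulates collagen fibril assembly, had 3 probe sets. The brightest read 9.02, 9.60 and 9.21 in controls and 9.11, 9.01 and 9.26 in knockouts, where control 2 stood alone above the rest. The difference was −0.15 (−0.51 to 0.21, limma adjusted p = 0.939), and the other 2 probe sets gave −0.095 and 0.0037. As with Tnc and Postn, number 2 gave the most negative value (−0.59), and numbers 1 and 3 gave 0.09 and 0.05. Without control 2 the difference was 0.011.

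**Figure D2:**
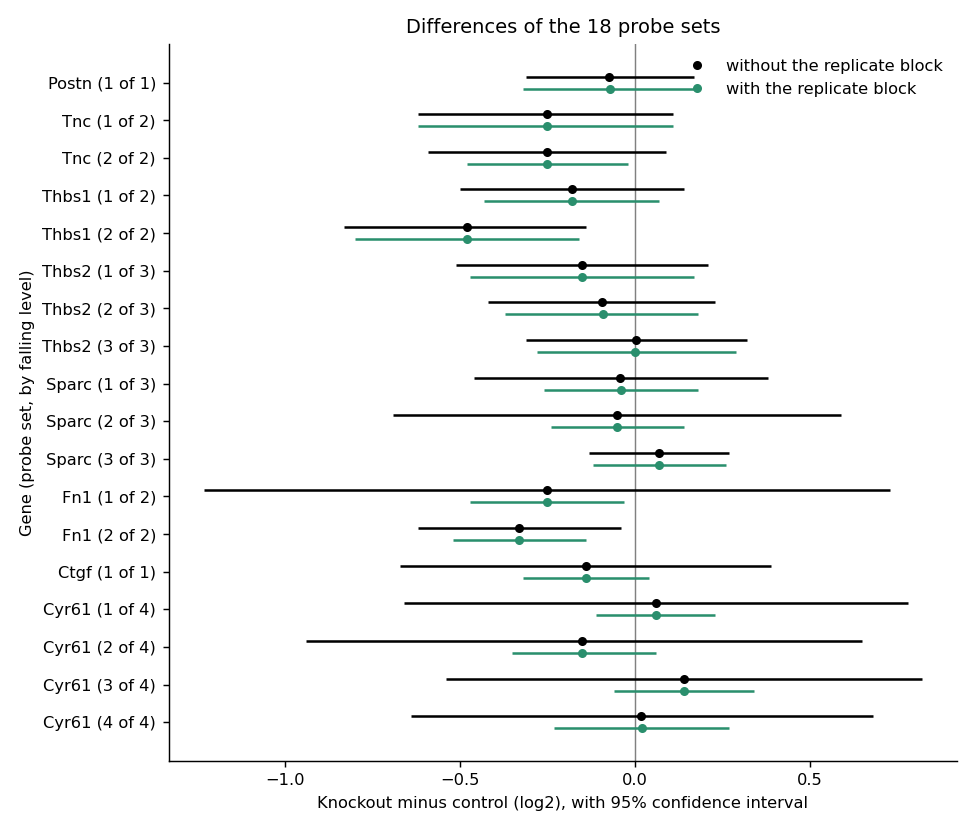
Knockout minus control (log2) for each of the 18 probe sets, with the 95% confidence interval of the limma fit without (black) and with (green) the replicate number as a block; a gene's probe sets run from brightest to dimmest. The block leaves every difference as it is and narrows the intervals of Fn1, Ctgf, Cyr61 and Sparc, and none of the 18 passed the adjusted threshold in either fit.

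Across the arrays the 18 probe sets did not all follow 1 order. In 9 of them (1 of Fn1, the one of Ctgf, 4 of Cyr61, 2 of Sparc and the brighter one of Thbs1) both arrays numbered 1 lay below the other 4, where 16.5% of all probe sets did. By gene this held for 5 of 8, against 18.8% of all genes, and probe sets of 1 gene read the same RNA. The mean of the arrays numbered 1 was below the mean of the other 4 by a factor of 2.20 for Fn1, 1.81 for Cyr61, 1.51 for Ctgf, 1.35 for Sparc and 1.19 for Thbs1. Postn and Tnc, at 0.987 each, showed no such gap, and in the brightest probe sets of these and of Thbs2 control 2 was highest and knockout 2 lowest. This did not hold in the dimmer sets, where that of Tnc was highest in control 1 (5.01) and those of Thbs2 were lowest in control 1 (8.66 and 8.45). The dimmer sets of Fn1 and Thbs1 and the dimmest of Sparc followed neither order. The grouping by number was seen in the values and has no test.

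**Figure D3:**
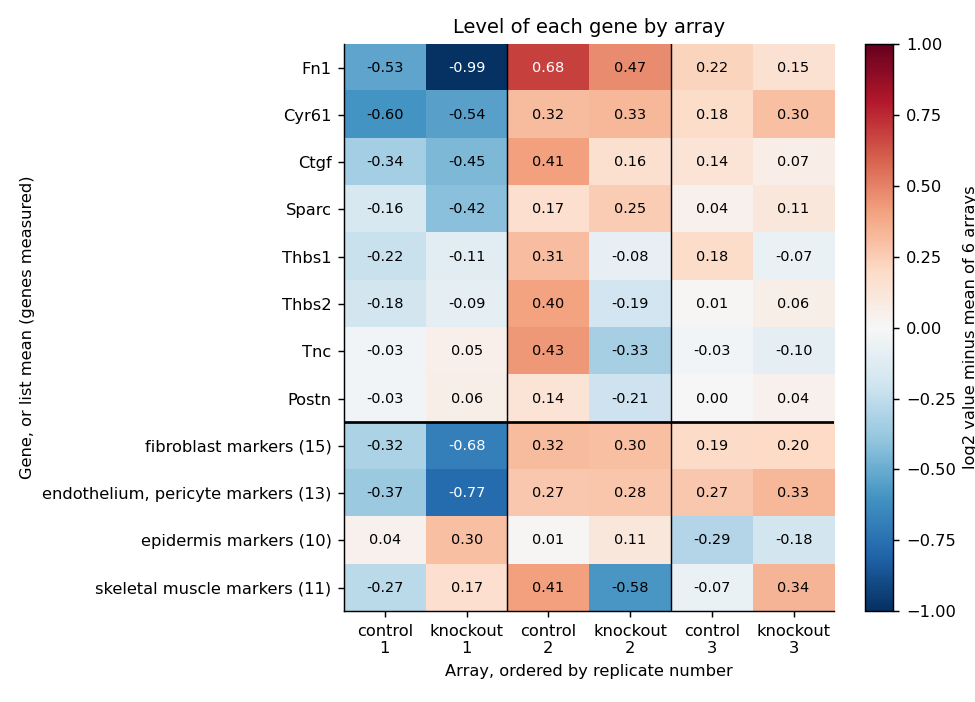
Level on each array minus the mean of the 6 arrays (log2), by colour and printed value, for the brightest probe set of the 8 genes (above the line) and the mean of 4 marker lists (below it). Columns are ordered by replicate number; Fn1, Cyr61, Ctgf and Sparc are blue in both arrays numbered 1, as are the fibroblast and the endothelial lists, while Tnc is highest in control 2 and lowest in knockout 2, as is the muscle list.

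Marker lists moved with both orders, the muscle list only in some arrays, and their part in these orders was not tested. The 15 fibroblast markers averaged −0.32 in control 1, −0.68 in knockout 1 and between 0.19 and 0.32 in the other 4 arrays (log2, each gene relative to its mean). In 11 of the 15 both arrays numbered 1 were below the rest, against 18.8% of all genes. The 13 endothelial and pericyte markers lay at −0.37 and −0.77 in those arrays and between 0.27 and 0.33 in the others, with 12 of 13 below. In the groups, the fibroblast list ran from −0.32 to 0.32 in controls and from −0.68 to 0.30 in knockouts, and the endothelial list from −0.37 to 0.27 and from −0.77 to 0.33. The 10 epidermal markers did not share the pattern, with 0 of 10 below, at 0.044 in control 1 and 0.30 in knockout 1. The 11 skeletal muscle markers, from muscle beneath the skin, lay at 0.41 in control 2 and −0.58 in knockout 2, as Tnc, Thbs2 and Postn lay highest and lowest in these arrays. The muscle list also spread over the remaining arrays, at −0.27 in control 1, −0.067 in control 3, 0.17 in knockout 1 and 0.34 in knockout 3. Tnc did not follow it there, at −0.03, −0.03, 0.05 and −0.10. Control 1 also stood apart in 1 of 4 adipocyte markers, Adipoq, at a level of 8.64 against 3.32 to 3.48 elsewhere. Fabp4 (9.44, next 9.28) and Pparg (7.57, next 7.39) were highest in control 1 too, by less, while Cebpa was at its lowest there (10.11).

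The knockout was lower within all 3 replicate numbers in 6 of the 18 probe sets (the dimmer sets of Tnc and Thbs1, both of Fn1, the one of Ctgf and 1 of Cyr61), against 17.9% of all probe sets, and higher in 1 (the brightest of Cyr61), against 17.7%. By gene, this held for Fn1 and Ctgf, 2 of 8, against 17.6% of all genes as lower. Numbers 2 and 3 each join an array with low and an array with high Y-linked values. With the replicate number as a block in limma, 0.00666% of all probe sets passed and 0 of the 18 did (adjusted p = 0.335 to 0.994).

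How alike the 8 genes were across arrays was measured as the root mean square difference between the values of 2 genes over the 6 arrays, each gene centred on its own mean (log2). Thbs1 and Thbs2 were closest, at 0.10, followed by Tnc with Thbs2 at 0.12. Sparc and Ctgf stood 0.14 apart and Ctgf and Cyr61 0.17, while Fn1 stood 0.25 from Cyr61 and 0.60 from Tnc and from Postn. The measure grows with how far a gene varies, so steady genes are close to each other by construction.

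Over 11841 other genes above the median level, the 2 nearest to Fn1 by that measure were Nol4l (0.054) and the collagen VI chain Col6a1 (0.056). Col6a1, like Fn1, was lowest in knockout 1 and next in control 1 (−0.50). Among those near Ctgf was the chromatin regulator Asxl1 (0.031), and the nearest to Cyr61 were the transcription factor Mef2d (0.044) and Ckap4 (0.053). Sparc was nearest to Snapc2 (0.021) and Kmt5c (0.024), and Thbs1 to the coactivator Ncoa2 (0.036) and the stress-response phosphatase subunit Ppp1r15a (0.051). Thbs2 was nearest to Mtcl1 (0.037) and Lmcd1 (0.05), Tnc to Bin1 and the collagen chain Col19a1 (0.09 each), and Postn to Ppwd1 and Faim2 (0.047 each).

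The genes around the 8 were described as lists, by the brightest probe set of each gene. The lists were chosen with earlier results of these data known, so shares set beside those of all genes are not separate evidence. Of all genes, 47.6% were lower in the knockout. The lists share genes, so their counts are not separate observations. Lats2 and Tgfb2 are among both the upstream regulators and the targets, and Col1a1, Col1a2, Col3a1 and Lox are also fibroblast markers. No member of any list passed limma's adjusted threshold. Of 18 further matricellular genes measured, 10 were lower and 8 higher in the knockout, with a median difference of −0.063 beside 0.007 over all genes. The values with the smallest p were those of Nov (Ccn3), a CCN protein, at 8.93, 8.38 and 8.65 in controls and 8.45, 8.17 and 7.26 in knockouts. Its difference was −0.69 (limma adjusted p = 0.909), with an interval from −1.39 to just under 0, with −0.56 in its other probe set, and knockout 3 lay far below the rest while control 2 lay below knockout 1. Spock3, a testican, and Wisp2 (Ccn5) differed by 0.21 and 0.20 at levels below the median of all probe sets, and the other probe set of Spock3 gave −0.41.

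Among 19 receptors for these ligands, 11 were lower and 8 higher (median −0.07). In 10 both arrays numbered 1 lay below the other 4, against 18.8% of all genes. Itgb1, the beta subunit shared by the fibronectin receptor and many others, read 9.59, 9.98 and 9.83 in controls and 9.37, 9.47 and 9.57 in knockouts. The groups did not overlap, with knockout 3 just below control 1, and the difference was −0.32 (−0.60 to −0.05, limma adjusted p = 0.909), though its other probe sets ran from −0.25 to 0.15. Itga5, its partner in the classical fibronectin receptor, differed by −0.056 and Itgav by −0.084. The epithelial partners of Itgav, Itgb8 and Itgb6, differed by 0.31 and 0.22 at levels below the median, and the other probe set of Itgb6 gave −0.11.

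Of 23 genes of TGF-beta, Hippo and SRF regulation upstream of Ctgf and Cyr61, 17 were lower and 6 higher (median −0.12), 11 were lower within every replicate number (17.6% of all genes were) and 14 had both arrays numbered 1 lowest (18.8% of all genes). None had an unadjusted limma p under 0.05. The smallest p belonged to the receptor Tgfbr1 (−0.20, −0.41 to 0.01; its other probe sets 0.023 and 0.038), the mediator Smad3 (−0.25; others 0.029 to 0.19) and the ligand Tgfb3 (−0.27).

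Of 24 measured targets of YAP and serum response factor, 16 were lower and 8 higher (median −0.11), and 5 had an unadjusted limma p under 0.05, or 20.8% against 5.07% of all genes. They did not share a direction. The list was chosen with earlier results of these data known, so its share is not separate evidence. Axl, a receptor kinase, read 9.13, 9.10 and 9.05 in controls and 8.67, 8.96 and 8.73 in knockouts, a difference of −0.31 (−0.53 to −0.08, limma adjusted p = 0.909) without overlap, but its other probe set gave 0.13. Ankrd1, with Ctgf and Cyr61 the most used YAP readout, differed by −0.25, with −0.28 in its other probe set, at a level below the median. Fosl1, a subunit of AP-1, differed by 0.22 (−0.029 in its other probe set), also at a level below the median. The remaining 2, which lie outside the 3 smallest p and were chosen after their values were seen, were smooth muscle actin Acta2 at −0.33 (−0.095 and 0.077 in its other probe sets) and the kinase Nuak2 at 0.30 (groups without overlap, knockout higher).

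Of 20 genes of fibronectin and collagen assembly and its proteases, 18 were lower and 2 higher in the knockout (median −0.11). Of all genes 47.6% were lower. None of the 20 had an unadjusted limma p under 0.05, and 16 had both arrays numbered 1 below the other 4, against 18.8% of all genes. Fibril-associated Col14a1 (−0.23, −0.48 to 0.02), the protease Adamts16 (0.23) and the crosslinking enzyme Lox (−0.27, −0.77 to 0.24) had the smallest p. Their other probe sets gave −0.11 to 0.053 for Col14a1, 0.011 for Adamts16 and −0.48 to −0.11 for Lox. Lox read 10.68, 11.36 and 11.30 in controls and 10.50, 11.01 and 11.03 in knockouts, lower in the knockout within each number and lowest in number 1, the order that Fn1 and Ctgf also had for number 1.

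**Figure D4:**
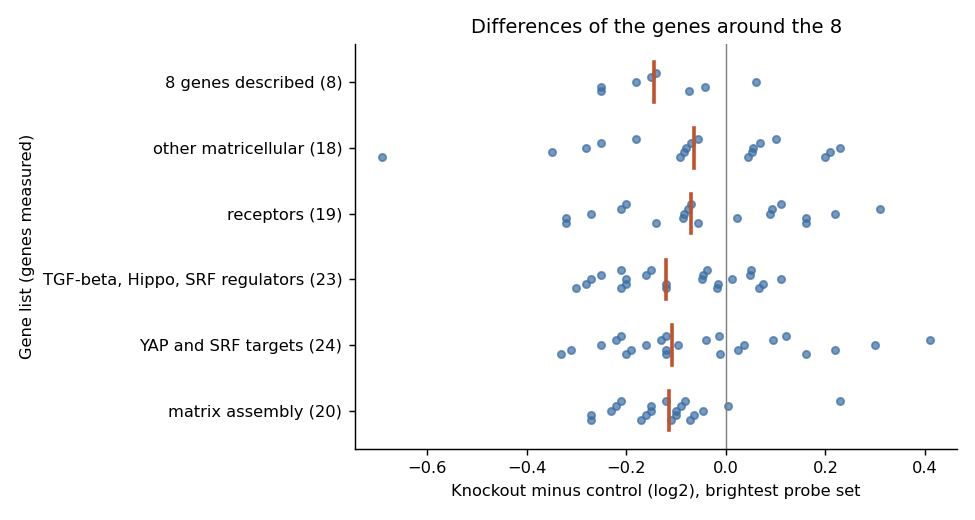
Knockout minus control (log2) of the brightest probe set of each gene (points) and the list median (bar) for the 8 genes and 5 lists around them; list sizes are in brackets. The medians lie between −0.15 and −0.063, and single genes spread to both sides of 0 in every list.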

How the data were processed

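All 6 arrays (3 control, 3 knockout, grouped by title) entered. The authors deposited RMA values, per the submitters' processing notes, which give no version. Their log base is nowhere stated, and the deposited values, from 2.39 to 14.8, were read as log2. RMA gives all arrays 1 distribution and shrinks large differences of dim probe sets. Detection calls were not made here.

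The 64 array control probe sets of 45101 were left out, with no other filter. Of 45037, 34945 had 1 gene symbol, 932 several and 9160 none, and symbols were updated by Entrez identifier (34741 matched). A gene's brightest probe set has the highest mean over the 6 arrays. The fits used the limma package, version 3.58.1, under R 4.3.3 (lmFit and eBayes, two-sided, without covariates), after a test on simulated data, and drawn with matplotlib 3.10.9. Exact permutation tests used scipy 1.17.1.

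Genes and lists were chosen with earlier results of these data known. From each list the text names the 3 genes with the smallest p, and for each of the 8 genes the 2 nearest others, of which 1 is not reported here. Genes named beyond this (Itga5, Itgav, Acta2, Nuak2) were chosen after their values were seen. Replicate numbers were taken to pair arrays because deviations from group means correlated at 0.568, 0.359 and 0.124, all above 0.1. What a number stands for is not in the labels, and control 2 correlated more with knockout 3 (0.422).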

Additional observations from a re-analysis of the deposited data

How the results depend on the processing

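No probe set of the 8 genes passed limma's adjusted threshold in any fit tried: a variance trend, probe sets above the median, a further quantile normalisation, centred arrays, array weights, the Y-linked mean as a covariate, the replicate block, each array left out, and both arrays numbered 1 left out, the last added after the data were seen. The replicate block changed no call, with adjusted p = 0.335 at the lowest. The block, the variance trend, the level filter and the exact permutation test leave a difference as it is. Over 94 recomputed values of the 8 differences that could move, 81 kept the sign and 13 reversed it, and the causes were not tested. With array weights Sparc was at 0.051. Without both arrays numbered 1, which keeps the numbers balanced, Sparc was at 0.07, Fn1 at −0.14 and Ctgf at −0.16. Leaving out 1 array at a time gave −0.12 to 0.012 for Postn, −0.34 to −0.099 for Tnc, −0.33 to −0.068 for Thbs1, −0.28 to 0.011 for Thbs2, −0.18 to 0.16 for Sparc, −0.58 to 0.18 for Fn1, −0.35 to 0.047 for Ctgf and −0.22 to 0.35 for Cyr61. Control 2 alone turned Thbs2 (0.011), Sparc (0.035), Fn1 (0.028) and Ctgf (0.029), and knockout 1 alone turned Sparc (0.16), Fn1 (0.18) and Ctgf (0.047). Cyr61 turned without control 1 (−0.22), knockout 2 (−0.09) or knockout 3 (−0.076), and Postn without knockout 2. The number of probe sets whose groups did not overlap, 2 of 18 with all arrays, ran from 2 to 6 when 1 array was left out. It was 4 without control 1, 6 without knockout 1 and 2 without any other single array. Fewer arrays make a separation easier in every such setting, and why the count rose in only these was not tested. The share of all probe sets that separate in these settings is not given here, so 4 and 6 cannot be set against it. With 3 arrays a group, the intervals of the 18 probe sets reach 0.2 to 0.98 to either side, and 0.17 to 0.37 with the replicate block (0.22 for the brighter set of Fn1), which limits the differences that can be seen.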
